A study of Schizosaccharomyces pombe with 2 samples.

Results

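The 5S rRNA genes of fission yeast (Schizosaccharomyces pombe) were followed through 1 Hi-C contact map. All 36 genes annotated as 5S rRNA on chromosomes I to III were taken, 12 on I, 16 on II and 8 on III, and each was placed in its 10 kb bin. They fell in 36 different bins, of which 35 had values, out of 1218 bins with values among 1258. The bin of SPRRNA.29 (II:520001-530000) was blank, so this gene has a sequence here and no contact. Hi-C ligates and sequences pairs of restriction ends that lay close together in fixed chromatin, so a higher value means that 2 bins were joined more often.

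The cells carried sap1-1, a mutant allele of sap1, which encodes an essential DNA-binding protein. Cultures grew logarithmically in rich medium (YEA) at 26 °C and were moved to 33 °C for 6 h, and chromatin was then fixed with 3% formaldehyde for 20 min and cut with HindIII. The series lists 2 replicates of this 1 group and no control strain, and its values form 1 map, whose header carries a tag for replicate 1. Whether it holds that replicate alone or both pooled is not stated. No value below is therefore a difference between strains, no replicate error exists, and no test was made. Intervals are 95% Poisson intervals on the whole reads recovered from the corrected values. They cover counting error only, and may be too narrow even for that, since reads amplified by PCR are not independent molecules. The map holds 37526864 recovered reads, 7686 to 98119 per bin, and the 35 bins with a 5S gene hold 20553 to 84044 (median 54738, beside 58761.5 over all bins).

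5S rRNA is the small RNA of the large ribosomal subunit, and RNA polymerase III makes it. Transcription factor TFIIIA binds inside the gene, TFIIIC and TFIIIB follow, and in fission yeast a TATA element upstream of genes transcribed by this polymerase takes part in their activation. In this yeast the 5S genes are scattered along the chromosome arms as single copies, whereas the other rRNA genes stand in tandem arrays at the ends of chromosome III. Genes transcribed by RNA polymerase III and bound by TFIIIC have been studied in this yeast for their position in the nucleus, among them tRNA genes near centromeres.

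The sequences show which loci could be told apart. A stretch of 119 bases, the core, was identical in 23 of the 36 genes, and a further 7 genes differed from it by 1 edit, 2 by 2 edits and 2 by 3 edits. SPRRNA.41 (20 edits) and SPRRNA.54 (28 edits) were degraded. The commonest core, a near complete variant and both degraded copies follow, read 5′ to 3′ on the gene's strand from the RefSeq reference, with substituted bases in capitals. Deleted bases (10 in SPRRNA.41 and 6 in SPRRNA.54) are simply missing from the printed copies.
SPRRNA.38, commonest core, II:4210381-4210499, minus strand: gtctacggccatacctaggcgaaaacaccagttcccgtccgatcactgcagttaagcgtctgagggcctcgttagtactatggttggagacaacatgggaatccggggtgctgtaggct
SPRRNA.04, III:1474259-1474377, minus strand: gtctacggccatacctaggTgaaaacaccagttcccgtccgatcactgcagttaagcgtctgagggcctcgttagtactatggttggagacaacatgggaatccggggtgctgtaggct
SPRRNA.41, II:3171572-3171680, minus strand: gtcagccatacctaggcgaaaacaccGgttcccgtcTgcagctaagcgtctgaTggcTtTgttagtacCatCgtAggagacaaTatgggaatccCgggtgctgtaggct
SPRRNA.54, II:3096968-3097080, minus strand: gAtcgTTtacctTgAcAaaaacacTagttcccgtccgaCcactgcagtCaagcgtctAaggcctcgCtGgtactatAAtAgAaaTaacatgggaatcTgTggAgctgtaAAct

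Counting positions from 1 at the 5′ end of the core, the commonest substitution among the near complete genes was C20T, in SPRRNA.11, SPRRNA.04 and SPRRNA.05. T12C stood in SPRRNA.30 and SPRRNA.40, and each of the other 8 substitutions was in 1 gene. No 25-base word of a core occurred elsewhere on the 3 chromosomes. All 36 genes lay between protein-coding genes, none inside one. The core of SPRRNA.27 ran across the edge of 2 bins and, like every other, was counted in the bin that holds its midpoint.

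Outside the core the loci shared little sequence. Over 630 pairs of genes, the 100 bases upstream had a median identity of 36% and the 100 bases downstream 34%, and 13 pairs shared a 30-base word outside the cores. SPRRNA.03 and SPRRNA.04 shared most, with 164 shared words and the same 100 bases upstream. Some other pairs shared shorter stretches. SPRRNA.28 and SPRRNA.29 had the same 29 bases directly upstream, and SPRRNA.35 and SPRRNA.40 had an upstream identity of 69%. A TATA, which reads the same on both strands, stood within 50 bases before the core in 29 of 36 genes (80.6%), beside 77.8% of 171 tRNA genes, 33.8% of 5113 protein-coding genes and 23.9% of all 50-base tiles. Its distance to the core ran from 9 to 33 bases (median 25). A run of TTTT, the letters of an RNA polymerase III terminator, followed within 20 bases on the gene's strand in 31 of 36 genes (86.1%), beside 17.3% of tiles. The 50 bases before the core are shown for the pair of genes with the highest contact and for the duplicated pair, with TATA in capitals.
SPRRNA.38 upstream: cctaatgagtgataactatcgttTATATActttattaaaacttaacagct
SPRRNA.06 upstream: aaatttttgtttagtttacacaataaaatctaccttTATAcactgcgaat
SPRRNA.03 upstream: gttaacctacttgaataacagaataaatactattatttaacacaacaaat
SPRRNA.04 upstream: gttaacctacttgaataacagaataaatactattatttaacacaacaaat
SPRRNA.38 and SPRRNA.06 have TATA there, whereas SPRRNA.03 and SPRRNA.04 lack it and are the same letter for letter.

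tRNA genes were frequent neighbours. A tRNA gene lay within 1000 bases of 10 of the 36 cores (27.8%), beside 3.74% of protein-coding genes, and 9 of the 10 were on the strand of the 5S gene. Of those 10, 3 were tRNA-Asn genes, beside SPRRNA.06, SPRRNA.38 and SPRRNA.39. A 5S gene lay within 1000 bases of 3 of 11 tRNA-Asn genes (27.3%), beside 7 of 160 other tRNA genes (4.38%). The 3 tRNA-Asn genes are printed because they carry the words that these loci share, with the base that differs from the first in capitals.
tRNA-Asn beside SPRRNA.06, III:1701899-1701972, plus strand: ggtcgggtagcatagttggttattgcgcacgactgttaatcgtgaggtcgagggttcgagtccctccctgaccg
tRNA-Asn beside SPRRNA.38, II:4210053-4210126, minus strand: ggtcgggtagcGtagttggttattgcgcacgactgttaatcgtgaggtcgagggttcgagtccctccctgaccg
tRNA-Asn beside SPRRNA.39, II:2032160-2032233, plus strand: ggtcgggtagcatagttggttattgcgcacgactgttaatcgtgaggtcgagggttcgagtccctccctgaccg
The copy beside SPRRNA.38 differs by A12G, counted from its 5′ end, and the copies beside SPRRNA.06 and SPRRNA.39 are identical.

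Hi-C reads start near cut sites, so the distance of a core from a cut site bears on how many reads can hold it. The distance from core to nearest HindIII site ran from 68 bases (SPRRNA.39) to 2582 (SPRRNA.27), with a median of 912. Only 7 of 36 cores (19.4%) lay within 500 bases of a site, 3 within 300 and 20 within 1000. The values below are those of whole 10 kb bins, not of the cores.

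Across chromosomes the 5S bins met each other slightly more than other bins at the same distances from the centromeres. Each of the 396 pairs was divided by the mean of all pairs of bins on different chromosomes in the same pair of 100 kb classes of distance from the centromere, and this ratio is the contact over expectation. The 396 pairs held 5346 reads (0 to 70 per pair, median 11). Their mean ratio was 1.09 (interval 1.05 to 1.12), with a median of 1.05 and an SD over pairs of 0.433, whereas all 469200 pairs had a mean of 1, a median of 0.961 and an SD of 0.446. The shift of the mean was thus small beside the spread of single pairs. A ratio above 1 was seen in 225 pairs (56.8%), beside 45.6% of all pairs. A ratio above 1.5 was seen in 68 (17.2%), beside 9.27%, and above 2 in 9 (2.27%), beside 1.74%.

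**Figure D1:**
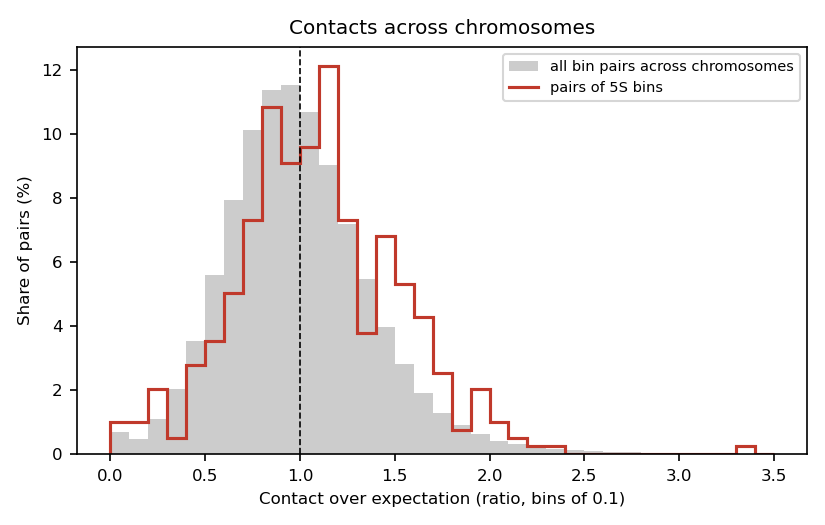
Contact over expectation (ratio, horizontal axis) of pairs of bins on different chromosomes, as the share of pairs in percent (vertical axis), for all pairs (grey) and the 396 pairs of 5S bins (red outline). The red outline is shifted to the right, with a median of 1.05 beside 0.961, and 1 pair stands apart at 3.33.

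The excess depended on the correction of the map. On recovered reads without the authors' iterative correction, which scales every bin to the same total, the mean over the 396 pairs was 0.981, and 185 pairs were above 1 beside 45.9% of all pairs. Over pairs of arm bins alone (no nearer than 200 kb to an end of the chromosome or 100 kb to its centromere midpoint) it was 1.03 without the correction and 1.11 with it.

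Part of the excess was broad around the loci. When the mean ratio was laid out at offsets of up to 100 kb around each pair, the centre had 1.09 and the ring 30 to 50 kb away had 1.04, a centre over ring of 1.04 (interval 1.01 to 1.08). Within 50 kb, 9 of 121 offsets including the centre reached at least the centre's value. Over its own ring, 215 pairs (54.3%) were above 1, beside 46.5% of all pairs, with a median of 1.04 beside 0.971. Without the correction the centre over ring was 0.926.

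**Figure D2:**
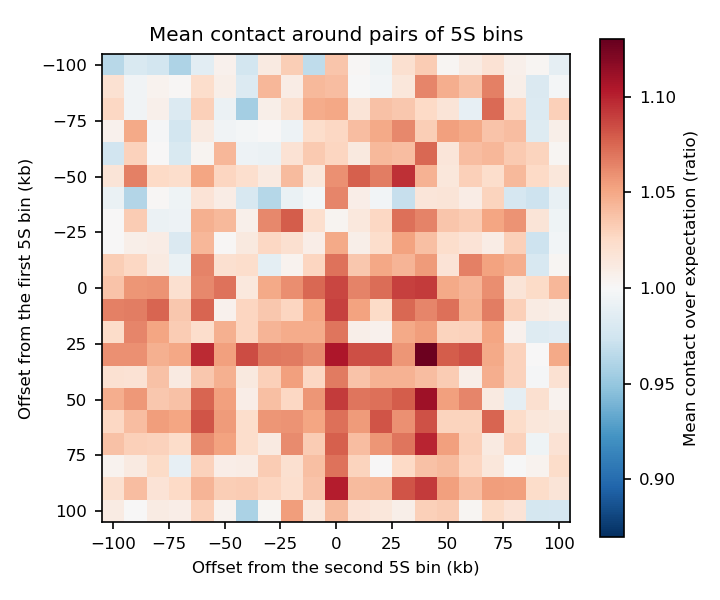
Mean contact over expectation (colour, ratio) at offsets of up to 100 kb from the first 5S bin (vertical axis) and the second (horizontal axis), over the pairs across chromosomes. The centre has 1.09, and the red field reaches well beyond it, with 1.04 in the ring 30 to 50 kb away.

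The excess over expectation lay mainly between chromosomes II and III, but much of it there was shared by the surroundings. The 120 pairs of II with III held 2012 reads with a mean of 1.22 (interval 1.16 to 1.28), and 76 of them (63.3%) were above 1. All pairs of II with III had a mean of 1.03, with 49.1% above 1. The 180 pairs of I with II had 1.05 (0.993 to 1.10), beside 1.02 for all bins, and the 96 of I with III had 0.993 (0.926 to 1.06), beside 0.937. Without the correction the mean was again 1.22 for II with III, beside 1.02 for all bins, and was 0.906 for I with II and 0.829 for I with III. The interval of II with III lies above those of the other 2 classes, which overlap each other. Over the rings of the pairs the means were closer, at 1.07 for II with III, 1.04 for I with II and 0.997 for I with III.

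SPRRNA.32, between siw14 and rar1 at 217 kb from the centromere of II, was high with every 5S bin of III. Its 8 pairs there had ratios of 1.60 to 2.17 (mean 1.92, 288 reads), and 4 of them were among the 10 highest of all 396 pairs. Its neighbours were high as well, and over the ring its 8 ratios were 1.11 to 1.36. With the 12 bins of I the same gene had a mean of 0.904, 6 of them above 1. Without the correction SPRRNA.32 had 1.74 with III and 0.772 with I.

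SPRRNA.33 and SPRRNA.30 on II were also high with III, in different ways. SPRRNA.33, beside pht1, the gene for histone variant H2A.Z, and 117 kb from the centromere, had a mean of 1.52 with III (7 of 8 above 1, 318 reads), but 0.959 over its ring, with 2 of 8 above 1. SPRRNA.30, between tre1 and def1, had 1.56 with III (8 of 8 above 1, 98 reads) and 1.29 over its ring, again 8 of 8 above 1. Without the correction these means were 1.74 for SPRRNA.33 and 1.12 for SPRRNA.30. Over their rings the mean with III was thus near 1 for SPRRNA.33, while it stayed above 1 for SPRRNA.30. These ring means have no interval, and the bin of SPRRNA.30 held only 41107 reads. With the 12 bins of I, SPRRNA.33 had 1.25 (8 above 1), 1.26 over its ring (10 above 1) and 1.24 without the correction. SPRRNA.30 had 1.04, 0.931 and 0.716 there.

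**Figure D3:**
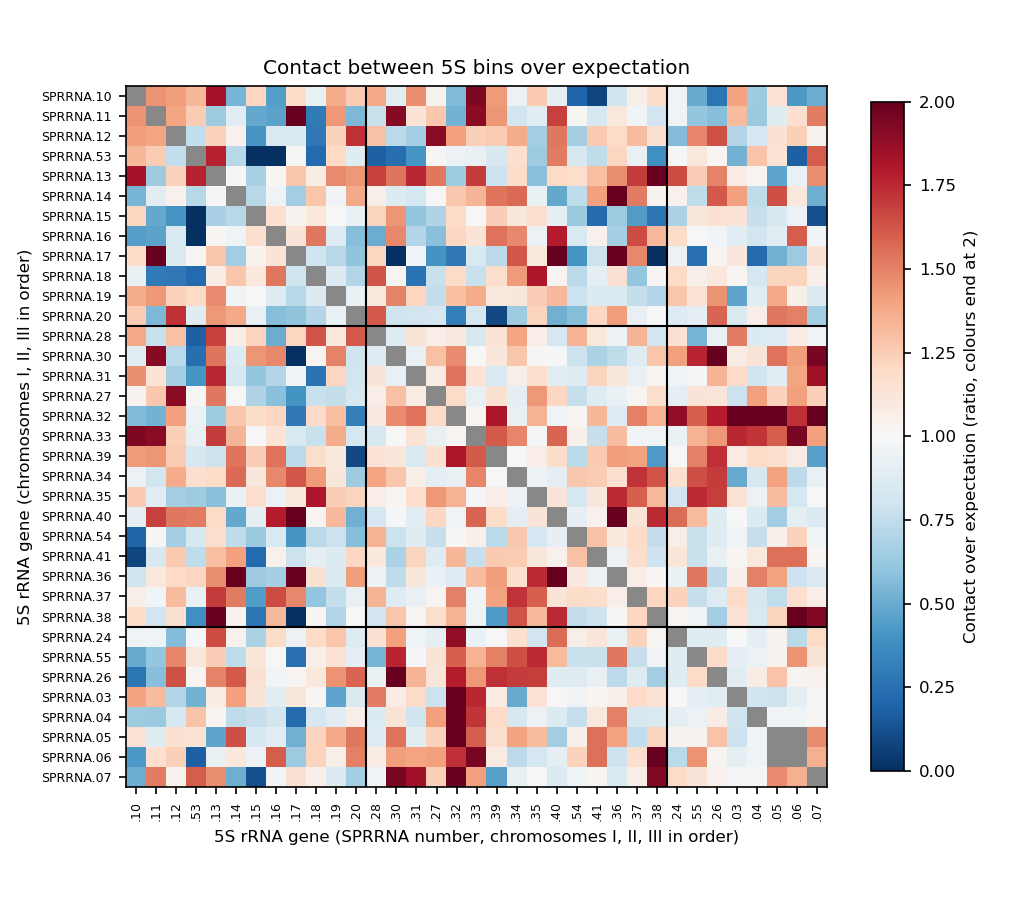
Contact over expectation (colour, ratio, ending at 2) between all 35 bins with a 5S gene, in order along chromosomes I, II and III, with black lines between chromosomes and grey on the diagonal and for bins under 20 kb apart. The row of SPRRNA.32 is red across all 8 genes of III (1.60 to 2.17), and the rows of SPRRNA.53 and SPRRNA.17 hold several dark blue cells.

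The highest pair was SPRRNA.38 on II with SPRRNA.06 on III. SPRRNA.38 lies between rpn1301, a proteasome subunit gene, and crb2, a DNA damage checkpoint gene. The pair held 41 reads and a ratio of 3.33 (interval 2.39 to 4.52), and 3.45 over its ring. The 24 other pairs of bins within 20 kb had ratios of 0.416 to 1.80 (median 0.983), so none of them came near the pair itself. Without the correction the pair had 3.99. These are the bins of the near identical tRNA-Asn genes printed above, with 33 shared 30-base words.

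Other pairs that shared sequence were not all high. SPRRNA.39 and SPRRNA.06, whose tRNA-Asn genes are identical and which share 48 words, held 15 reads and a ratio of 1.09 (0.608 to 1.79). SPRRNA.39 and SPRRNA.38, on the same chromosome with 33 shared words, held 4 reads and 0.434 (0.118 to 1.11). SPRRNA.03 and SPRRNA.04, with 164 shared words, held 426 reads and 0.798 (0.724 to 0.878). The tRNA-Asn gene beside SPRRNA.38 was 914 bases from a HindIII site, that beside SPRRNA.06 was 471 and that beside SPRRNA.39 was 104. Reads placed at the wrong copy were not tested. Without the 5 pairs across chromosomes that share such words the mean over all pairs was 1.08.

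Few of the other high pairs were measured precisely. After SPRRNA.38 with SPRRNA.06 came SPRRNA.17 with SPRRNA.40 (between ucp3 and fnx1), at 2.39 on 5 reads (0.775 to 5.57). SPRRNA.14, between the exosome gene rrp41 and tif211 (a subunit of initiation factor eIF2), and SPRRNA.36, between tda1 and thi2, had 2.25 on 12 reads (1.16 to 3.94). SPRRNA.30 with SPRRNA.26 (between xlf1 and swt1) had 2.19 on 10 reads (1.05 to 4.02). SPRRNA.17 with SPRRNA.36 had 2.03 on 4 reads (0.553 to 5.20), and SPRRNA.13 (next to mfc1) with SPRRNA.38 had 1.99 on 15 reads (1.11 to 3.28). Both pairs of SPRRNA.17 have intervals that include 1. Without the correction 8 of the 10 highest pairs were still above 1, with ratios from 0.656 to 3.99 over the 10.

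SPRRNA.32 took part in 4 of these 10 pairs, each with an interval above 1. It had 2.17 with SPRRNA.03 (next to ags1, an alpha-glucan synthase gene) on 60 reads (1.65 to 2.79) and 2.09 with SPRRNA.04 (next to par1) on 52 reads (1.56 to 2.73). With SPRRNA.05 (next to tef3, a translation elongation factor gene) it had 2.09 on 30 reads (1.41 to 2.98), and with SPRRNA.07 (next to dpe2) 2.01 on 17 reads (1.17 to 3.22). Over their rings these 4 pairs had 1.23, 1.11, 1.36 and 1.35 in that order. The duplicated genes SPRRNA.03 and SPRRNA.04 had much the same ratio with SPRRNA.32, and so did SPRRNA.05 and SPRRNA.07.

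No small set of pairs carried the whole shift. The 10 highest pairs held 36.5% of the summed excess over 1, and the mean without them was 1.06. Their own mean was 2.25, while the same top share of all pairs across chromosomes had 2.40 and the rest of all pairs 0.964. The 38 highest pairs (9.60%) had to be removed before the mean reached 1 or less. Leaving out each bin in turn gave means of 1.07 (without SPRRNA.33) to 1.10 (without SPRRNA.15).

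At the low end, SPRRNA.17 held 0 reads with SPRRNA.30 and 0 with SPRRNA.38, where 3 reads, the limit that a count of 0 allows, would have given ratios of 1.40 and 1.39. These pairs say little, since SPRRNA.17 lies in the bin with the fewest reads of the 35 (20553). SPRRNA.20 with SPRRNA.39 (between ell1 and qcr1) had 0.096 on 1 read (0.0024 to 0.536), and SPRRNA.15 (between pan3 and bsu1) with SPRRNA.07 had 0.119 on 1 read (0.0030 to 0.664). SPRRNA.10 with SPRRNA.41 had 0.080 on 7 reads. Its class of distances also holds chromosome ends, so its expectation was 84.3 for a corrected value of 6.74, while the bins within 20 kb had a median of 13.3.

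Most 5S bins had a mean above 1 with the 5S bins of other chromosomes. It was above 1 in 27 of 35 bins, whereas 58.3% of all 1218 bins had a mean above 1 with the 5S bins on other chromosomes. Bins without a 5S gene thus met the 5S bins slightly more than expectation too, with a mean of 1.03. That mean was 1.06 for the 232 of them at 20 to 50 kb from a 5S bin and 1.02 for the 884 farther away. Among the 5S bins the means ran from 0.815 to 1.36 (median 1.09, SD 0.128). The highest were SPRRNA.33 (1.36, interval 1.22 to 1.51), SPRRNA.32 (1.31, 1.17 to 1.46), SPRRNA.13 (1.29, 1.12 to 1.46), SPRRNA.30 (1.24, 1.07 to 1.44) and SPRRNA.26 (1.21, 1.06 to 1.38). These 5 intervals overlap, so their order is not resolved by the reads. SPRRNA.06 had 1.21 as well (1.09 to 1.33).

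The lowest mean was that of SPRRNA.54, a degraded copy between zuo1 and rap1, a telomere protein gene, at 0.815 (0.706 to 0.935). SPRRNA.15 had 0.851 (0.747 to 0.964). SPRRNA.53, between ire1, a gene of the unfolded protein response, and the retrotransposon Tf2-2, had 0.864 (0.690 to 1.07) in a bin of only 26520 reads. The intervals of the lowest 2 lie under 1 and under those of the highest 3. Without the correction 18 of the 35 means were above 1, but the uncorrected share over all bins is not given here, so this count has no background. SPRRNA.13, whose bin held 35893 reads, had 0.865 with II and 0.697 with III without the correction.

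**Figure D4:**
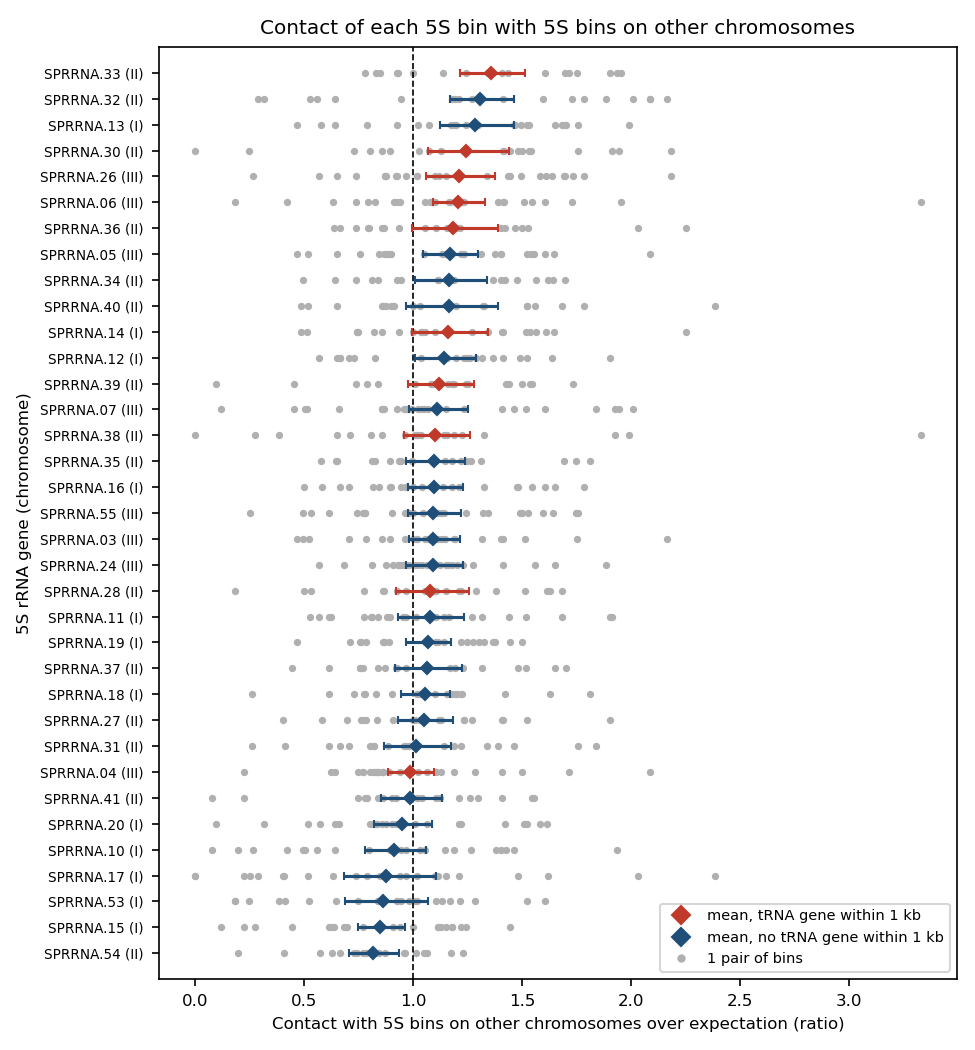
Contact over expectation (ratio, horizontal axis) of each of the 35 bins with a 5S gene (vertical axis, ordered by mean) with the 5S bins on other chromosomes. Grey points are pairs, diamonds are means with 95% Poisson intervals, and red marks genes with a tRNA gene within 1 kb; 27 means lie above 1, from 0.815 for SPRRNA.54 to 1.36 for SPRRNA.33.

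Pairs with a degraded copy had lower ratios and pairs with tRNA neighbours on both sides higher ones, on corrected values. The 40 pairs with a degraded gene had a mean of 0.901 (0.814 to 0.994), the 197 pairs of near complete but different cores 1.08 (1.03 to 1.13) and the 159 pairs of identical cores 1.14 (1.09 to 1.20). The intervals of the last 2 classes overlap. The degraded class holds only SPRRNA.54, with the low mean given above, and SPRRNA.41, with 0.987 (0.853 to 1.13) and 11 of 20 pairs above 1. Both degraded genes lie on II. Without the correction the order of the 3 classes turned, with 1.11, 0.986 and 0.942. Over the rings of the pairs they were closer, at 0.969, 1.03 and 1.07 in the same order. Pairs with a tRNA gene within 1000 bases of both 5S genes had 1.34 (1.19 to 1.50, 27 pairs), or 1.26 (1.11 to 1.42) without the highest pair. With such a tRNA gene at 1 of the 5S genes the mean was 1.11 (1.05 to 1.16, 170 pairs), and at neither 1.04 (0.989 to 1.08, 199 pairs), and these 2 intervals overlap. Without the correction these 3 classes had 1.07, 0.971 and 0.978, and the first fell to 0.958 without the highest pair. Over their rings they had 1.19, 1.03 and 1.03, and the first had 1.10 without the highest pair. The classes differ in their chromosomes, since most pairs with tRNA genes at both are of II with III. All 5S pairs of II with III had a mean of 1.22. The share of chromosomes and of tRNA neighbours in these means was not tested.

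The classes by nearness of the core to a cut site were not resolved. Pairs with both cores within 500 bases of a HindIII site had 0.976 (0.821 to 1.15, 15 pairs), pairs with 1 such core 1.07 (1.01 to 1.12, 126 pairs) and pairs with none 1.10 (1.06 to 1.15, 255 pairs). The intervals of the 3 classes overlap, and without the correction the order turned, with 1.05, 1.05 and 0.941. Genes on opposite strands had 1.13 (1.08 to 1.18, 195 pairs) and genes on the same strand 1.05 (0.999 to 1.10, 201 pairs), with intervals that overlap too. Without the correction these were 1.05 and 0.912.

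On the same chromosome the excess was of similar size. The 198 pairs at least 20 kb apart held 12636 reads and had a mean of 1.07 (1.03 to 1.11) and a median of 1.04 over the mean at the same separation on the arm, or over pairs in the same distance classes across the centromere. A ratio above 1 was seen in 114 pairs (57.6%), beside 47.3% of all pairs. A ratio above 1.5 was seen in 16 (8.08%), beside 6.03%, and above 2 in 2 (1.01%), beside 0.852%. Pairs on the same arm had 1.05 (97 pairs) and pairs across the centromere 1.08 (101 pairs). Without the correction the mean of all 198 was 0.986.

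The highest pairs of 1 chromosome were SPRRNA.11 (near ste7) with SPRRNA.17 at 2.40 on 4 reads (0.654 to 6.14) and SPRRNA.40 with SPRRNA.36 at 2.08 on 19 reads (1.25 to 3.25). SPRRNA.10 with SPRRNA.13 had 1.83 on 10 reads (0.879 to 3.37), SPRRNA.32 with SPRRNA.39 had 1.82 on 40 reads (1.30 to 2.48), and SPRRNA.53 with SPRRNA.13 had 1.77 on 9 reads (0.808 to 3.35). Only the pairs SPRRNA.40 with SPRRNA.36 and SPRRNA.32 with SPRRNA.39 have intervals above 1 among these 5. SPRRNA.53 held 0 reads with SPRRNA.15 and 0 with SPRRNA.16, separated by 1980 and 2070 kb. There 3 reads, the same 1-sided limit as above, would have given 0.538 and 0.452.

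The insulation of the 5S bins was close to that of the map. The insulation score is the log2 of the mean contact across a bin, between the 50 kb on either side, over the median of its chromosome, and a low score marks a place that contacts rarely cross. The 35 bins had a median of 0.02 (SD 0.20), beside a median of 0 and an SD of 0.16 for all bins. It was below 0 in 17 of 35 bins (48.6%), beside 50% of all bins. A boundary, a minimum at least 0.1 below its higher flank, lay in 6 of 35 bins (17.1%), beside 16.7%. It lay in the bin or a neighbour in 16 (45.7%), beside 48.2%. Each share was within a few points of the map's.

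Single genes still lay at strong minima or maxima. SPRRNA.18, between hsp90, the gene for a major chaperone, and dph4, had the lowest score, -0.61, with a boundary of depth 1.25 in its bin 124 kb from the centromere of I. It was followed by SPRRNA.05 (-0.37, with a boundary of depth 0.273), SPRRNA.06 (-0.26), SPRRNA.10 (-0.25, near hsp3102) and SPRRNA.04 (-0.21). SPRRNA.05 and SPRRNA.06 lie in adjoining bins and share that minimum. The highest scores were those of SPRRNA.17 (0.45), SPRRNA.30 (0.40) and SPRRNA.13 (0.33), the first of them 63.7 kb from the centromere of I.

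**Figure D5:**
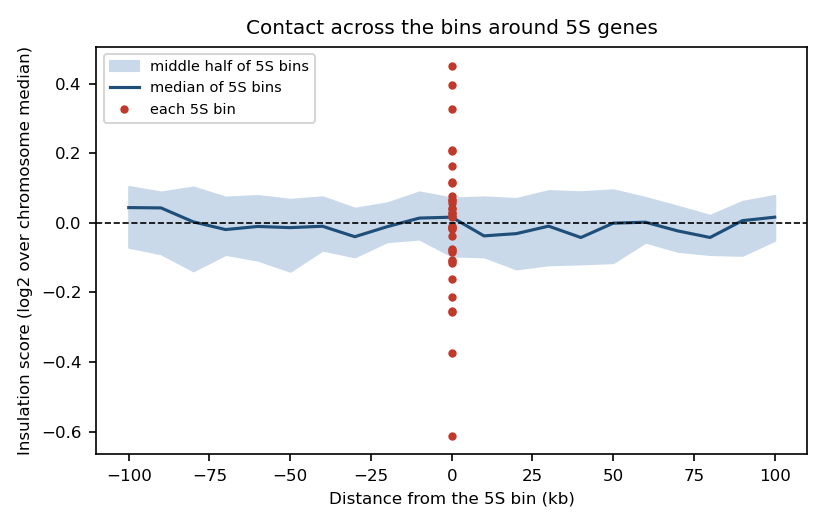
Insulation score (log2 over the chromosome median, vertical axis) by distance from the 5S bin (kb, horizontal axis), as the median (line) and range between quartiles (band) of the 5S bins, with each 5S bin as a red point at 0. The median stays between -0.042 and 0.044 over 100 kb on either side, while single bins run from -0.61 to 0.45.

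Contact with centromeres and chromosome ends was measured for the 32 arm bins, as the sum with those of other chromosomes divided by the median of neighbouring bins of the arm, up to 100 kb away. With centromeres the median log2 ratio was 0.07 (SD 0.34), and 17 of 32 bins (53.1%) were above their neighbours, beside 50.3% of all 1068 arm bins. At least 1.5 times their neighbours were 5 of 32 (15.6%), beside 4.21%. Those were SPRRNA.33 (log2 0.71, 569 reads), SPRRNA.36 (0.68, 57 reads), SPRRNA.16 (0.67, 533 reads), SPRRNA.18 (0.64, 689 reads) and SPRRNA.13 (0.59, 65 reads). SPRRNA.33, SPRRNA.16 and SPRRNA.18 lie 117, 136 and 124 kb from their own centromere in that order, while SPRRNA.36 lies 2313 kb and SPRRNA.13 796 kb away. Of all arm bins under 200 kb from the centromere 37.3% reached 1.5 times. From 200 kb outward 2 of 28 5S bins (7.14%) did, beside 2.28% of 1009 arm bins, and their median log2 ratio was -0.02. Without the correction 4 of 32 (12.5%) reached it, beside 5.15%.

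The lowest contacts with centromeres were those of SPRRNA.53 (log2 -0.66, 16 reads), SPRRNA.54 (-0.31, 53 reads) and SPRRNA.04 (-0.30, 209 reads). With the ends of I and II the median log2 ratio was 0.04 (SD 0.28), and 17 of 32 bins were above their neighbours, beside 51.2%. None of the 32 reached 1.5 times, beside 6.55% of arm bins. The highest were SPRRNA.16 (0.51, next to ctr5, 48 reads), SPRRNA.26 (0.51, 72 reads) and SPRRNA.19 (0.41, between isp7 and mal2, 58 reads). The lowest were SPRRNA.12 (-0.85, next to pli1, 43 reads), SPRRNA.03 (-0.39, 82 reads) and SPRRNA.31 (-0.36, between sim3 and gyp1, 46 reads). Without the correction 2 of 32 reached it, beside 9.36%. Both medians lay within the spread of single bins around 0, and both changed sign without the correction (-0.04 with centromeres and -0.07 with ends).

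The 5S bins lay nearer to centromeres than the bins of the map, at a median of 606 kb beside 1043 kb, and more of them held a tRNA gene. A tRNA gene lay in 10 of 35 (28.6%), beside 9.20% of all bins. Long terminal repeats were in 11.4%, beside 14.2%, and convergent gene pairs in 77.1%, beside 80.2%. Both sets had a median of 5 HindIII sites, and their median AT content was 64.1% and 64.0%. The 102 tRNA bins without a 5S gene met the 5S bins of other chromosomes at a mean of 1.04 (2343 pairs) and each other at 1.03 (3357 pairs), beside 1.09 for the 5S bins.

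Other genes of the 5S pathway and condensin genes, taken as 1 list, met the 5S bins no more often than bins without a 5S gene did. Of 32 listed loci all were found, and 30 had values and no 5S gene in their bin. Their mean ratio with the 5S bins of other chromosomes was above 1 in 15 of 30, with a median of 1.00, beside 57.7% and a median of 1.03 for all bins without a 5S gene. The range ran from 0.807 for rpl502, a gene of ribosomal protein L5, which binds 5S rRNA, to 1.17 for maf1, the repressor of RNA polymerase III. Other RNA polymerase III transcripts had 0.978 (snu6, U6 RNA) and 1.09 (srp7, signal recognition particle RNA), and sfc2, the gene for TFIIIA, had 0.975. The TFIIIC genes sfc1, sfc3, sfc4, sfc7 and sfc9 had 0.865 to 1.10. The TFIIIC gene sfc6 shares its bin with SPRRNA.34, and rpf2, a 5S assembly factor gene, shares that of SPRRNA.18. The 5 condensin genes, which are counted among the 30, ran from 0.877 (cut3) to 1.00 (cnd2). The pathway genes without them were not summarized.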

How the data were processed

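The deposited file holds Hi-C signal for each 10 kb by 10 kb cell, iteratively corrected by the authors per the file headers. The submitters' processing notes name Bowtie2 2.1.0 and the build ASM294v2. The 3 chromosome lengths of the RefSeq reference, which gave genes and sequences, equal those of the map. Whole reads were recovered by finding a factor per bin. All values came within 0.05 of whole numbers, and the reads made 99.9% of the header's 37571192. The mean interval scales an exact Poisson interval by an effective number of reads. Centromere midpoints were the middle of each longest stretch without protein-coding genes. Cores were aligned with edlib 1.3.9.post1. Distances and motifs were read from the reference. Recovery, raised pairs and planted boundaries were tested on simulated data. Genes named were all members, the highest and lowest pairs and members by set numbers, their neighbours and a list of pathway and condensin genes. Members, lists and rules were chosen with earlier results of these data known. Alternatives covered the correction, bins, classes, windows and thresholds. Software was Python 3.11.15 with matplotlib 3.10.9, NumPy 2.4.6 and SciPy 1.17.1.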

Additional observations from a re-analysis of the deposited data

How the results depend on the processing

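Reads without the correction turned 5 results: the mean across chromosomes to 0.981, that on the same chromosome to 0.986, the centre over ring to 0.926, and the median log2 contact with centromeres to -0.042 (from 0.069) and with ends to -0.074 (from 0.042). The last 2 stayed within the spread of bins. The uncorrected reads also moved the 5S bins in or beside a boundary from 16 to 26, beside 73.4% of all bins. The causes were not tested. After seeing the data, pairs of arm bins without the correction gave 1.03 and bins with no tRNA gene within 1000 bases 1.04. Leaving out the degraded genes (1.11), pairs that share words (1.08) or bins off the arms from the expectation too (1.10) was also chosen then, as was centromere contact of bins from 200 kb outward (median log2 -0.018, another sign). Adding the ends of III turned end contact to -0.023. Balancing again gave 1.07, 1.04 and 1.02 for the first 3 results. Leaving out each 5S bin in turn gave 1.07 to 1.10 across chromosomes and 1.05 (without SPRRNA.32) to 1.08 (without SPRRNA.15) on the same one. The median insulation score was 0.048 with 30 kb windows and -0.015 with 100 kb. Boundaries in the bin itself numbered 6, and cores near a cut site 3 within 300 bases and 20 within 1000. All other alternatives kept direction, values stayed within the counting interval or spread, and counts within 1.5 times. No paired analysis was possible because the 1 map does not separate the replicates. Depth limits single pairs, with a median of 11 reads.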
